A study of Mus musculus with 36 samples.

Results

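The 36 genes described here encode the enzymes and transporters of glycolysis and a set of proteins whose genes are switched on by low oxygen. They were chosen as a named list, and all 36 were found among the 37417 genes of the count table, with a mean of at least 1 CPM (counts per gene scaled to the same total in every library) over the libraries. In glycolysis, glucose is carried into the cell, phosphorylated by hexokinase and split and oxidized to pyruvate, which lactate dehydrogenase turns into lactate for export. When oxygen falls, the hypoxia-inducible factors (HIFs) escape hydroxylation by the EGLN prolyl hydroxylases and raise the transcription of many of these genes. Solid tumours grown under the skin commonly hold poorly perfused regions in which this programme runs.

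Bulk mRNA sequencing was performed on 36 subcutaneous tumours from wild type mice aged 12 weeks, each giving 1 library, with 4 libraries in each of 9 labelled groups. The labels name MC38, a colon adenocarcinoma line, and PancO2, a pancreatic line, both in C57BL/6J mice, and CT26, a colon carcinoma line, in BALB/c mice, each given 10 mg/kg IgG, anti-CTLA4 or anti-PD-1 by intraperitoneal injection. The study set models that respond to checkpoint antibodies against those that do not. Each library is whole tumour tissue at end stage, so it holds RNA of cancer cells and of host cells, and fewer cells of a type cannot be told apart from less RNA per cell.

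The libraries held between 7883106 and 41751023 counts. The labels did not match the strain markers in 16 libraries. H2-Ea-ps, the E alpha gene of the major histocompatibility complex that BALB/c mice transcribe and C57BL/6 mice do not, was above 10 CPM in 12 libraries, of which 8 were labelled as MC38 or PancO2 in C57BL/6J. Values are therefore given first by 3 classes of 12 libraries each that were drawn from 2 measured genes. The H2-Ea-ps-expressing class held 32.8 to 134 CPM of that gene. The Cp-high class held no more than 0.0845 CPM of H2-Ea-ps and 1389 to 2168 CPM of Cp, the gene of ceruloplasmin, and the Cp-low class 255 to 611 CPM of Cp. Each class held 3 to 5 libraries of each labelled model. The library labelled PancO2 anti-PD-1 71 stood apart, with the fewest counts and 15.7% mitochondrial counts against 2.80% to 4.35% in the other 35. All correlations leave it out, and the tests of antibody against IgG in PancO2 keep it. For 14 of the 36 members it was the lowest of its class, and without it the counts of members whose ranges did not overlap, by pair of classes, were unchanged at 11, 9 and 9.

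The 250 bases before the RefSeq transcription start (GRCm38.p6) are shown for the 3 members that followed the other members most closely, Bnip3, Slc2a1 and Pgk1, and for Pfkfb4, the member that followed them least among those with an entry. Capitals mark the core of the HIF binding site, ACGTG or GCGTG, read on both strands, so that CACGT and CACGC are the same words on the other strand and CACGTG holds an overlapping pair.
Bnip3: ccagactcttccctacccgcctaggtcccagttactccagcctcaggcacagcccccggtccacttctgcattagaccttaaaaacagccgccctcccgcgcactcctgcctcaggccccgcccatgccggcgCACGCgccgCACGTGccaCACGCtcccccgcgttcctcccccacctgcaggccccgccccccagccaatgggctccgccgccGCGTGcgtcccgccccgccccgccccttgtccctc
Slc2a1: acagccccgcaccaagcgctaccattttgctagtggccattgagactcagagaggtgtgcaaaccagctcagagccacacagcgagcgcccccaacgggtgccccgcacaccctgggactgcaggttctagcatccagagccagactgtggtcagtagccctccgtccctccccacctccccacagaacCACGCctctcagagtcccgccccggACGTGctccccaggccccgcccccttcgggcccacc
Pgk1: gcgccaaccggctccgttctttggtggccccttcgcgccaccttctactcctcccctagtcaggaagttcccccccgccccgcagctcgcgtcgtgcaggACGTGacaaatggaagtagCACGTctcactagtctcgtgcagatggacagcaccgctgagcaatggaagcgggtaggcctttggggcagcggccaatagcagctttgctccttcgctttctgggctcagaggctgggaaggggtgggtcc
Pfkfb4: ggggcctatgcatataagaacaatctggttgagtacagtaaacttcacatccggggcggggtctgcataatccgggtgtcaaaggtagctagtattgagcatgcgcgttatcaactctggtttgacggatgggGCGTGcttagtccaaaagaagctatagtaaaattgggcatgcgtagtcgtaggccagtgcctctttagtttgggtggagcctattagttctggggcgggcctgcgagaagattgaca

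The Bnip3 window is chr7:138909507-138909756 on the minus strand and holds 5 cores, with first bases between 117 and 35 bases before the start. The windows of Slc2a1 (chr4:119108495-119108744), Pgk1 (chrX:106186850-106187099) and Pfkfb4 (chr9:108991652-108991901), all on the plus strand, hold 2, 2 and 1. Both Pgk1 cores lie close together, at 150 and 131 bases before the start. RefSeq windows were listed for 33 of the 36 members, without Slc2a3, Ndrg1 and Epas1. At least 1 core was found in 29 of the 33 (87.9%) and in 41.5% of the 27025 genes of the table. Counted by window, 47.8% of the 46 member windows and 16.7% of all 32851 windows held 2 or more cores. Member windows were richer in G and C, with a median of 62.8% against 52.7%, and the part of base composition in the count of cores was not tested. A core is a match of letters and no evidence of binding.

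Levels between classes are a description, since the classes were drawn from the same libraries. The CPM ranges of 15 of the 36 members did not overlap between at least 1 pair of classes, where 53.1% of the 14125 genes with a mean of at least 1 CPM did not. Between the H2-Ea-ps-expressing and Cp-high classes, 11 members did not overlap (all genes, 31.7%), 2 higher (12.2%) and 9 lower (19.5%) in the former. Between the H2-Ea-ps-expressing and Cp-low classes 9 did not (all genes, 26.9%), 5 higher (9.13%) and 4 lower (17.7%). Between Cp-high and Cp-low 9 did not (all genes, 30.7%), 8 higher (14.7%) and 1 lower (16%) in Cp-high. The members' shares, 30.6%, 25% and 25%, were no higher than those of all genes. Pfkm and Pfkfb4 did not overlap between any 2 classes.

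**Figure D1:**
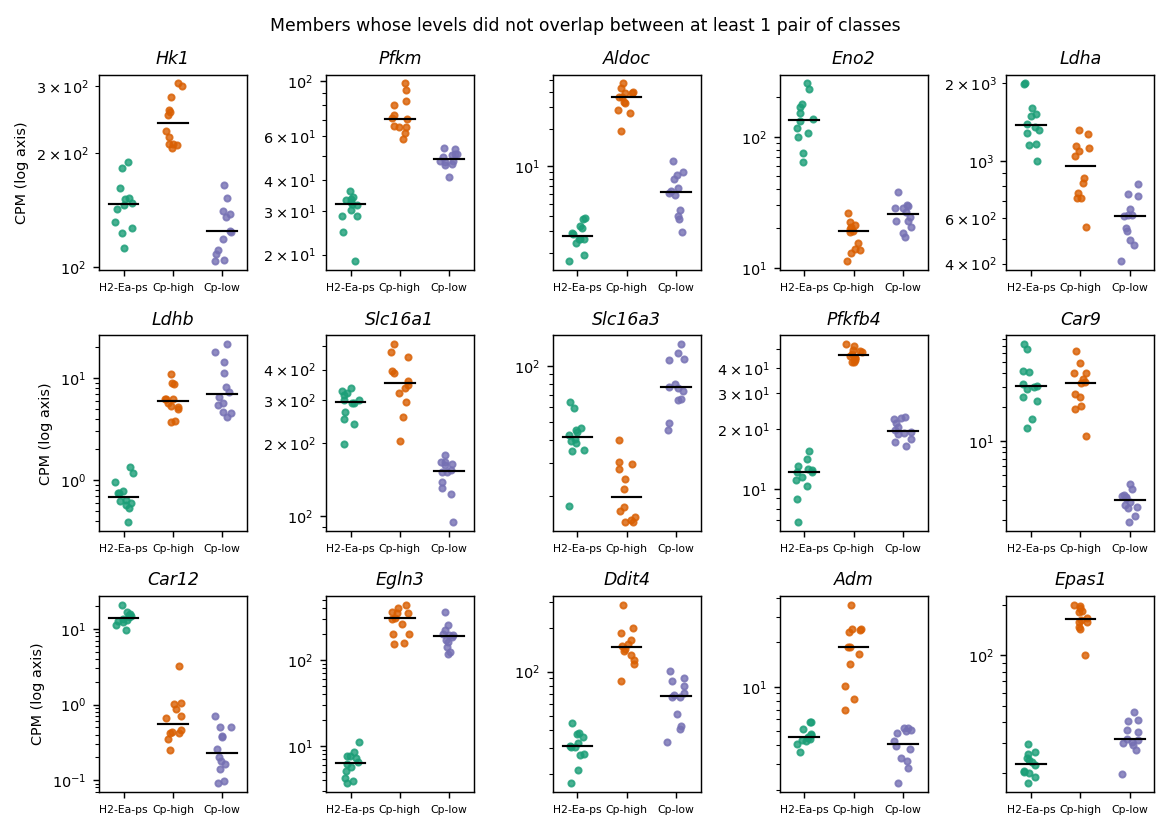
CPM on a log axis of the 15 members whose ranges did not overlap between at least 1 pair of classes, with 1 point per library (12 per class) and a line at the class median. Egln3 sits between 3.66 and 11.1 CPM in the H2-Ea-ps-expressing class and at 118 CPM or more in both others, and Epas1 and Aldoc are highest in the Cp-high class.

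Glucose enters through Slc2a1 and Slc2a3, and neither separated the classes. Slc2a1 had a median of 158 CPM (99.7 to 254) in the H2-Ea-ps-expressing class, 119 CPM (46.3 to 224) in Cp-high and 162 CPM (77.0 to 327) in Cp-low. Per kilobase of exon, Slc2a1 made up 95.7% to 98.2% of the pair at the class medians. The lactate and pyruvate transporters did separate. Slc16a1 had a median of 154 CPM (94.5 to 179) in Cp-low, below every library of the H2-Ea-ps-expressing class (198 to 336, median 296) and of Cp-high (204 to 508, median 352). Slc16a3, the exporter typical of glycolytic cells, showed the opposite order. Its median was 76.7 CPM (45.3 to 131) in Cp-low and 19.6 CPM (14.4 to 39.7) in Cp-high, a 3.91-fold difference without overlap, with the H2-Ea-ps-expressing class between them at 41.6 CPM (17.5 to 63.9). Per kilobase, Slc16a3 made up 28.9% of this pair in Cp-low, 10.3% in the H2-Ea-ps-expressing class and 4.71% in Cp-high.

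Among the upper enzymes, Hk1, Pfkm and Aldoc separated classes and Hk2, Gpi1, Pfkl, Pfkp and Aldoa did not. Hk1, the constitutive hexokinase, reached a median of 240 CPM (206 to 305) in Cp-high, above the H2-Ea-ps-expressing class (147 CPM, 113 to 190) and Cp-low (124 CPM, 104 to 165). With TMM-scaled libraries the first of these gaps closed and the ranges overlapped. Hk2, the inducible form, overlapped in all classes, with medians of 115, 86.5 and 96.5 CPM in the H2-Ea-ps-expressing, Cp-high and Cp-low classes. Pfkm, the muscle form of phosphofructokinase, was 31.9 CPM (18.8 to 36.2), 70.8 CPM (58.5 to 98.1) and 48.7 CPM (41.1 to 53.8) in the same order, while Pfkl and Pfkp overlapped. Skeletal muscle markers moved with Pfkm in the Cp-high class (r = 0.707, n = 12) but not in the H2-Ea-ps-expressing class (r = -0.0800, n = 11), and their part in the level was not tested. Aldoc, an aldolase best known from brain, was 13.3-fold higher at the median in Cp-high (36.4 CPM, 19.2 to 46.7) than in the H2-Ea-ps-expressing class (2.75 CPM, 1.72 to 3.83) and 5.86-fold higher than in Cp-low (6.21 CPM, 2.99 to 11.01). It still made up 3.19% of the aldolase pair per kilobase in Cp-high, where Aldoa, the general form, stood at a median of 976 CPM there.

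The lower enzymes Tpi1, Pgk1, Pgam1, Eno1 and Pkm overlapped between all classes, and Pkm, the pyruvate kinase, had class medians of 2122, 2062 and 1692 CPM. Eno2, the neuronal enolase that also responds to hypoxia, was 135 CPM (63.8 to 256) in the H2-Ea-ps-expressing class, 19.03 CPM (11.2 to 26.03) in Cp-high and 25.6 CPM (17.2 to 38.02) in Cp-low. It made up 15.1% of the enolase pair per kilobase in the first and 3.80% and 4.45% in the others. Ldha, which forms lactate, was 1375 CPM (998 to 1998) in the H2-Ea-ps-expressing class and 613 CPM (408 to 811) in Cp-low, without overlap, with Cp-high at 954 CPM (554 to 1317) overlapping both. Ldhb, the subunit that favours the return to pyruvate, went the other way, at 0.691 CPM (0.388 to 1.35), 5.94 CPM (3.73 to 10.9) and 6.92 CPM (4.11 to 21.3). Its lowest library had 5 counts. Processed copies of Aldoa, Tpi1, Pgk1, Pgam1, Eno1, Pkm and Ldha exist in the mouse genome, and reads that match several places were set aside in counting, so the levels of these genes and the shares built on them are uncertain.

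The regulators at the branch points separated the classes in 1 of 3 cases. Pfkfb4, which makes and degrades the activator of phosphofructokinase, was 12.2 CPM (6.85 to 15.6), 46.4 CPM (42.8 to 52.7) and 19.6 CPM (16.3 to 22.8) in the H2-Ea-ps-expressing, Cp-high and Cp-low classes. Its 12 Cp-high libraries lay within a 1.23-fold range, the narrowest of any member in any class. Pfkfb3, its relative, overlapped at 28.7, 51.9 and 38.4 CPM. Pdk1, which blocks the entry of pyruvate into mitochondria, was nearly level at 109, 120 and 123 CPM.

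The widest differences were among the hypoxia-induced genes. Egln3 (ENSMUSG00000035105, chr12:54178981-54203860, minus strand), an oxygen-sensing prolyl hydroxylase that is itself induced by HIF, had a median of 6.26 CPM (3.66 to 11.1) in the H2-Ea-ps-expressing class, 306 CPM (153 to 436) in Cp-high and 190 CPM (118 to 364) in Cp-low. The medians differed 48.9-fold and 30.3-fold. Egln1, the main hydroxylase of HIF, did not move with it, at 161, 158 and 160 CPM. Egln3 therefore made up 4.87% of the pair per kilobase in the H2-Ea-ps-expressing class (3.43% to 6.06% over libraries), 72.1% in Cp-high (63.7% to 79.3%) and 60.7% in Cp-low (56.5% to 67.5%).

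Both cell-surface carbonic anhydrases, which acidify the surroundings of hypoxic cells, were class-bound in different ways. Car9 (ENSMUSG00000028463, chr4:43506966-43513729, plus strand) was 30.6 CPM (13.2 to 72.3) in the H2-Ea-ps-expressing class and 33.2 CPM (11.2 to 63.7) in Cp-high, and 3.03 CPM (1.92 to 4.17) in Cp-low, with no overlap of the last with either. Car12 (ENSMUSG00000032373, chr9:66713686-66766845, plus strand) was 13.9 CPM (9.57 to 20.6) in the H2-Ea-ps-expressing class. In Cp-high it was 0.557 CPM (0.249 to 3.25) and in Cp-low 0.231 CPM (0.0912 to 0.713), and its lowest library had 3 counts.

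Ddit4, an inhibitor of the growth kinase mTORC1 induced by stress, was 147 CPM (86.6 to 285) in Cp-high and 30.9 CPM (17.3 to 44.4) in the H2-Ea-ps-expressing class, without overlap, and 67.9 CPM (32.8 to 101) in Cp-low. Adm, the vasodilator peptide adrenomedullin, was 18.6 CPM (6.94 to 35.8) in Cp-high and overlapped between the others, at 4.52 CPM (3.58 to 5.78) and 4.10 CPM (2.21 to 5.28). Bnip3, a receptor for the removal of mitochondria, overlapped in all classes (medians 226, 195 and 99.1 CPM), as did Ndrg1 (656, 485 and 157 CPM), Ankrd37 (11.6, 18.5 and 11.4 CPM) and the collagen prolyl hydroxylases P4ha1 (174, 207 and 170 CPM) and P4ha2 (42.3, 55.8 and 58.2 CPM).

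Of the HIF alpha subunits, Hif1a overlapped at 226, 215 and 264 CPM. Epas1, which encodes the second alpha subunit and is prominent in endothelium, was 164 CPM (100 to 199) in Cp-high, above every library of the H2-Ea-ps-expressing class (22.6 CPM, 17.4 to 29.9) and of Cp-low (31.6 CPM, 19.9 to 46.3). Per kilobase it made up 45.9% of the pair in Cp-high, 9.19% in the H2-Ea-ps-expressing class and 11.5% in Cp-low. The summed CPM of 8 endothelial markers ran from 103 to 236 in Cp-high, from 110 to 236 in the H2-Ea-ps-expressing class and from 143 to 260 in Cp-low. No marker was at 0 in every library of a class. Fibroblast markers had a summed median of 4395 CPM in Cp-high, 2171 CPM in the H2-Ea-ps-expressing class and 3672 CPM in Cp-low. The part of either cell type in the Epas1 level was not tested. Epithelial tumour markers differed more, with a summed median of 751 CPM in Cp-high, 11.7 CPM in the H2-Ea-ps-expressing class and 145 CPM in Cp-low, and their part in the levels above was not tested.

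**Figure D2:**
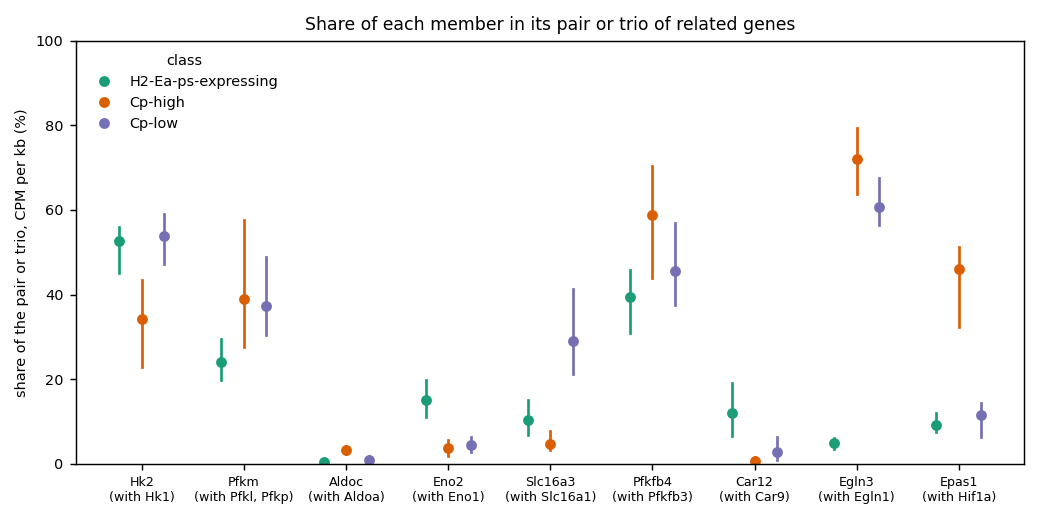
Share of 9 members in their pair or trio of related genes, as CPM per kilobase of exon in percent, by class, with points at the median and lines from the lowest to the highest of 12 libraries. Egln3 makes up 4.87% of its pair in the H2-Ea-ps-expressing class and 72.1% in Cp-high, and Slc16a3 reaches 28.9% in Cp-low.

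Within a class the members rose and fell together from tumour to tumour. This was measured on log2(CPM + 0.5), over 11 libraries of the H2-Ea-ps-expressing class and 12 of each other class. The mean correlation over the 630 pairs of members was 0.466 in the H2-Ea-ps-expressing class, 0.387 in Cp-high and 0.424 in Cp-low, against 0.0151, 0.0382 and 0.0106 over all genes. Libraries share depth and tissue make-up, so these values are a description. A mean r above 0.5 with the other members was found for 24 members in the H2-Ea-ps-expressing class (all genes, 5.7%), 25 in Cp-high (2.87%) and 19 in Cp-low (1.24%). It was found in all 3 classes for 18 members, where 58 of 14106 genes (0.411%) reached it.

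Those 18 spanned the pathway. They were the uptake transporter Slc2a1 and the exporter Slc16a3, the enzymes Hk2, Pfkl, Aldoa, Tpi1, Pgk1, Pgam1, Eno1, Pkm and Ldha, the kinase Pdk1, and the hypoxia-induced Bnip3, Egln1, Egln3, Ankrd37, Ndrg1 and P4ha1. Bnip3 led with a mean r of 0.672, 0.616 and 0.620 in the H2-Ea-ps-expressing, Cp-high and Cp-low classes, followed by Slc2a1 (0.664, 0.612 and 0.630) and Pgk1 (0.664, 0.609 and 0.625). Egln3 co-varied with the rest in the H2-Ea-ps-expressing class too (mean r = 0.549), where its level was 48.9-fold under that of Cp-high. By class, the highest mean r was that of Gpi1 (0.676), Aldoa (0.672) and Bnip3 in the H2-Ea-ps-expressing class. It was that of Bnip3, Tpi1 (0.616) and P4ha2 (0.614) in Cp-high and of Slc2a1, Pgk1 and Ldha (0.621) in Cp-low.

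**Figure D3:**
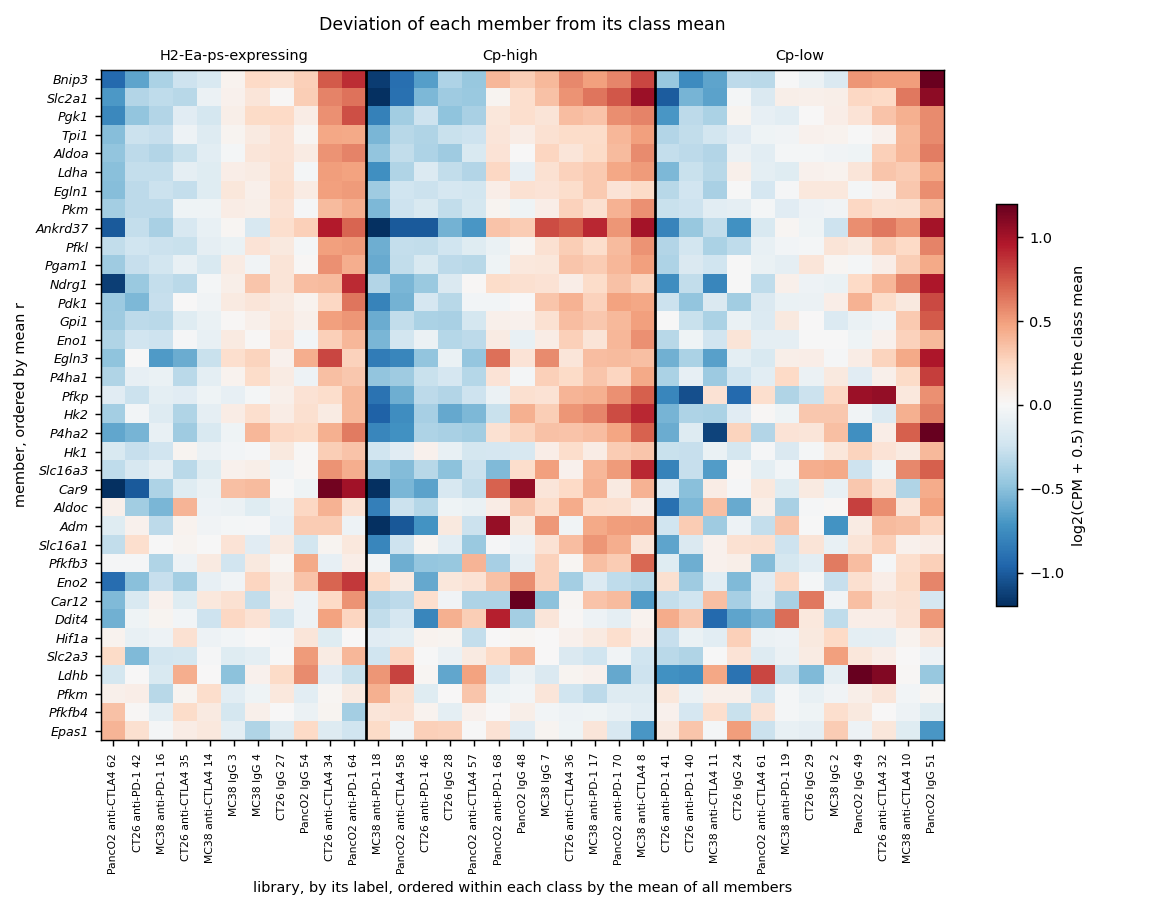
Deviation of each member from its class mean on log2(CPM + 0.5), with members in order of their mean r averaged over the classes and the 35 libraries ordered within each class by the mean of all members. Most of the upper members turn from blue to red together in each class, and Ldhb, Pfkm, Pfkfb4 and Epas1 at the bottom do not.

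Within each class, the same few libraries were often at the ends of the range. In Cp-high, the library labelled MC38 anti-PD-1 18 was the lowest for 24 of the 36 members and the library labelled MC38 anti-CTLA4 8 the highest for 19. In Cp-low, the library labelled PancO2 IgG 51 was the highest for 23, and those labelled CT26 anti-PD-1 41 and MC38 anti-CTLA4 11 the lowest for 13 and 9. In the H2-Ea-ps-expressing class, PancO2 anti-PD-1 64 by its label was the highest for 16 and that labelled PancO2 anti-CTLA4 62 the lowest for 13. Within Cp-high, Slc2a1 spanned a 4.85-fold range, Ankrd37 5.34-fold, Car9 5.69-fold and Adm 5.17-fold, while Hif1a spanned 1.40-fold.

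Some members did not follow the others. Epas1 had a mean r of -0.476, -0.411 and -0.415 with the other members in the H2-Ea-ps-expressing, Cp-high and Cp-low classes, and Pfkfb4 -0.429, -0.473 and -0.102. Pfkm (0.118, -0.484 and 0.0232) and Ldhb (0.0118, -0.403 and 0.171) ran against the others in Cp-high. Hif1a, whose protein rather than its mRNA is the known point of oxygen control, had -0.0962, 0.407 and 0.265. Eno2 had 0.658 in the H2-Ea-ps-expressing class, -0.138 in Cp-high and 0.373 in Cp-low, and the difference between classes was not tested. By class, the lowest 3 members were Epas1, Pfkfb4 and Hif1a in the H2-Ea-ps-expressing class, Pfkm, Pfkfb4 and Epas1 in Cp-high, and Epas1, Pfkfb4 and Pfkm in Cp-low.

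**Figure D4:**
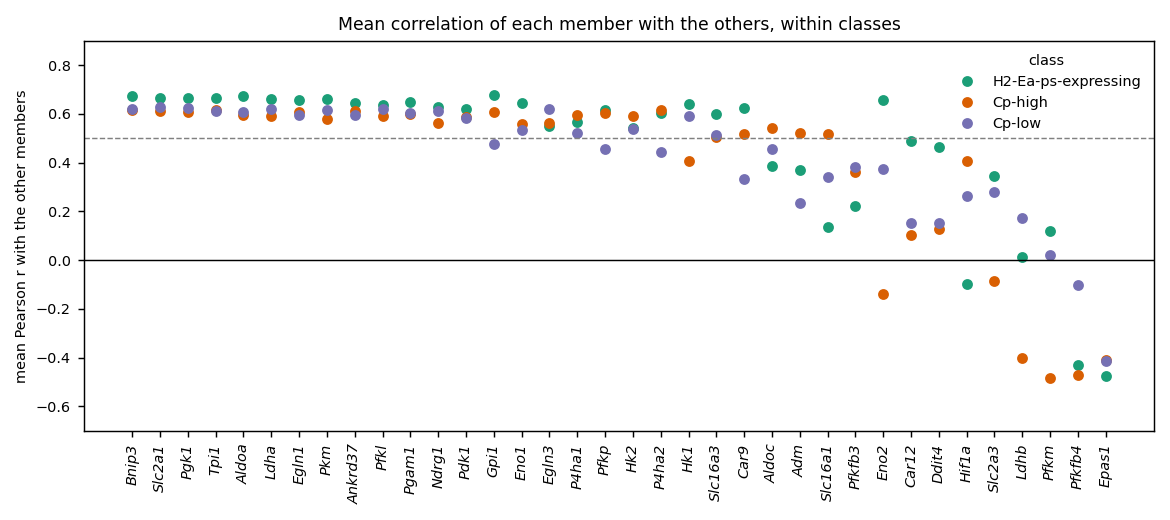
Mean Pearson r of each member with the other 35 members within each class, over 11, 12 and 12 libraries, ordered by the average, with a dashed line at 0.5. From Bnip3 to Ndrg1 and Pdk1 the 3 classes lie between 0.564 and 0.672, and the Epas1 points lie between -0.476 and -0.411.

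Markers of some other cells moved with the member level, taken as the mean deviation of the 36 members in a library. The summed CPM of the endothelial markers had r = -0.759, -0.714 and -0.756 with it in the H2-Ea-ps-expressing, Cp-high and Cp-low classes. Of the 8 markers, 6, 7 and 6 were below -0.5 and 0 were above 0. Epas1 followed the endothelial sum, with r = 0.784, 0.757 and 0.726. Macrophage markers had r = -0.727 and -0.838 in the H2-Ea-ps-expressing and Cp-low classes and 0.0846 in Cp-high, where the epithelial tumour markers had 0.813. Pfkfb4 followed several host sums in the H2-Ea-ps-expressing class: endothelial (r = 0.841), muscle (0.841), adipocyte (0.789), macrophage (0.749) and fibroblast (0.726). Its r with the endothelial sum was 0.376 in Cp-high and 0.00343 in Cp-low. With the muscle sum it was 0.726 in Cp-high, where Pfkfb4 spanned only a 1.23-fold range, and -0.568 in Cp-low. Depth had r = 0.0357, 0.476 and -0.0298 with the member level, and the mitochondrial share 0.124, -0.447 and -0.458. The part of these measures in the co-variation was not tested.

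The 9 pairs set by the members' roles were tested in each class with two-sided permutation tests, adjusted over the 27 relations by Benjamini-Hochberg. Of these, 17 passed an adjusted p of 0.05 by Pearson's r and 17 by Spearman's rho. Among all 630 pairs of members, r was above 0.5 in 55.1%, 58.9% and 46.7% in the H2-Ea-ps-expressing, Cp-high and Cp-low classes. The tests compare each pair with no relation at all and not with other pairs of members. A pass is thus not particular to the pairs set. Pgk1 and Ldha, which act at the payoff stage and the end of glycolysis, were the tightest pair, with r = 0.983, 0.967 and 0.993 and rho = 0.982, 0.944 and 0.972 in the H2-Ea-ps-expressing, Cp-high and Cp-low classes. Their permutation p of 1e-05 in each class is the smallest that 100000 permutations can give (adjusted p = 6.75e-05). Without the 2 libraries farthest from the median of Pgk1, r was 0.973, 0.947 and 0.987.

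Pdk1 and Bnip3, both on the mitochondrial side, had r = 0.932, 0.930 and 0.930 (rho = 0.927, 0.937 and 0.923), with permutation p = 3e-05, 1e-05 and 4e-05 and adjusted p = 0.000154, 6.75e-05 and 0.000154. Without the 2 farthest libraries r was 0.931, 0.849 and 0.842. The transporters Slc2a1 and Slc16a3 had r = 0.925, 0.861 and 0.863 (rho = 0.927, 0.804 and 0.762; permutation p = 4e-05, 0.00049 and 0.00039; adjusted p = 0.000154, 0.00110 and 0.000957), and 0.906, 0.874 and 0.729 without the 2 farthest. This held in Cp-high, where Slc16a3 was lowest.

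Egln3 and Ankrd37, both direct HIF targets, had r = 0.784, 0.912 and 0.852 (rho = 0.800, 0.783 and 0.888), with permutation p = 0.00394, 8e-05 and 0.00027 and adjusted p = 0.00711, 0.000270 and 0.000729. In the H2-Ea-ps-expressing class r was 0.666 over 9 libraries without the 2 farthest (exact permutation p = 0.0440), and the adjusted p of 0.0699 no longer passed. It was 0.852 and 0.850 in the others. Car9 and Ndrg1 correlated in the H2-Ea-ps-expressing class (r = 0.886, rho = 0.918, permutation p = 0.00022, adjusted p = 0.000660) and in Cp-high (r = 0.790, rho = 0.741, permutation p = 0.00164, adjusted p = 0.00341), and r was 0.875 and 0.857 without the 2 farthest. In Cp-low, where Car9 was near 3 CPM, r was 0.336 (rho = 0.343, permutation p = 0.287, adjusted p = 0.370) and -0.0803 without the 2 farthest. The difference between classes was not tested.

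Hif1a mRNA and Pgk1 correlated in Cp-high (r = 0.728, rho = 0.762, permutation p = 0.00516, adjusted p = 0.00871; 0.768 without the 2 farthest). In Cp-low r was 0.539 (rho = 0.503, permutation p = 0.0706, adjusted p = 0.0953) and 0.720 without the 2 farthest (adjusted p = 0.0325), and in the H2-Ea-ps-expressing class -0.117 (rho = 0.0364, permutation p = 0.732, adjusted p = 0.791). Hk1 and Hk2 had r = 0.788 in Cp-high (rho = 0.811, permutation p = 0.00395, adjusted p = 0.00711) and 0.709 in Cp-low (rho = 0.671, permutation p = 0.0113, adjusted p = 0.0180). Without the 2 farthest libraries r was 0.640 and 0.683 over 10 libraries, and the adjusted p no longer passed (0.0761 and 0.0593 by permutation). In the H2-Ea-ps-expressing class it was 0.596 (rho = 0.573, permutation p = 0.0525, adjusted p = 0.0746) and 0.378 without the 2 farthest.

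The other pairs did not pass. Ldha and Ldhb, the alternative subunits of lactate dehydrogenase, had r = -0.0917, -0.608 and 0.266 (rho = 0, -0.559 and 0.287), with permutation p = 0.789, 0.0376 and 0.402 and adjusted p = 0.820, 0.0564 and 0.472. Without the 2 farthest libraries r was 0.257, -0.499 and 0.292. Epas1 and Adm had r = 0.0462, -0.295 and -0.253 (rho = 0.0636, -0.245 and -0.147), with permutation p = 0.891, 0.358 and 0.428 and adjusted p = 0.891, 0.439 and 0.482. Without the 2 farthest r was 0.278, -0.0526 and -0.145.

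Other genes of the same pathways gave a mixed picture. Of 35 further hypoxia-induced and HIF pathway genes with a mean of at least 1 CPM, 15, 13 and 8 had a mean r above 0.5 with the members in the H2-Ea-ps-expressing, Cp-high and Cp-low classes, beside the 5.7%, 2.87% and 1.24% of all genes. Hilpda, a lipid droplet protein induced by hypoxia, had 0.660, 0.596 and 0.559, and the angiogenic factor Vegfa 0.543, 0.608 and 0.467. Of 26 further enzymes of glycolysis, pyruvate use and the pentose phosphate pathway, 4, 2 and 2 did. Gapdh, a glycolytic enzyme, was among them at 0.673, 0.621 and 0.578. Of 22 nuclear genes of oxidative phosphorylation 1, 1 and 0 did, and of 10 proliferation genes 0 did in each class.

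In level, Vldlr, a lipoprotein receptor induced by hypoxia, differed most among these lists. It was 307 CPM (223 to 407) in the H2-Ea-ps-expressing class, 149 CPM (103 to 205) in Cp-high and 0.731 CPM (0.228 to 1.63) in Cp-low. Stc2 was 4.06, 11.6 and 0.554 CPM at the medians, and Vegfa, at 276, 286 and 290 CPM, overlapped. In the enzyme list, Pdk2, a relative of Pdk1, was 1.79 CPM (1.24 to 2.77), 16.3 CPM (10.8 to 27.8) and 9.48 CPM (6.21 to 12.5). G6pdx, the entry enzyme of the pentose phosphate pathway, was 164 CPM (150 to 198) in Cp-high and 84.7 and 56.96 CPM in the others.

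By the labels, no member passed the test between groups. In the 9 labelled comparisons (3 between models under IgG, and anti-PD-1 or anti-CTLA4 against IgG in each model), the quasi-likelihood test of edgeR called 0 of 36 members and 0% of 16285 to 16510 genes after Benjamini-Hochberg adjustment. At an unadjusted p under 0.05 it counted 25 to 912 genes. limma-voom called 0 members and 0 genes, and the DESeq2 Wald test called 0 to 2 genes, among them 1 member in 1 comparison. At an unadjusted p under 0.05 there were 0 members for PancO2 IgG against MC38 IgG (all genes, 0.563%), CT26 IgG against MC38 IgG (0.503%), MC38 anti-PD-1 (0.374%), MC38 anti-CTLA4 (0.153%) and CT26 anti-PD-1 (0.332%) against their IgG. Each labelled group but 1 mixed libraries of all 3 classes, and PancO2 anti-PD-1 held none of Cp-low. With a term for the classes 0 members were called.

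The most members at an unadjusted p under 0.05 were found for PancO2 anti-CTLA4 against PancO2 IgG, with 8 of 36 (all genes, 0.488%). All 8 were lower in the libraries labelled with the antibody. The count was 3 without the library labelled PancO2 IgG 51 and 5 without PancO2 anti-CTLA4 58, and 6 to 8 without any other. The share of all genes in these fits is not given. The 8 were Ankrd37, Bnip3, Slc2a1, P4ha2, Pdk1, Egln1, Hk2 and P4ha1. The median log2 fold change of the members was -0.37, with 6 of 36 above 0, and that of all genes -0.01. Members rose and fell together within classes (mean pairwise r of 0.387 to 0.466). Counts of members here and below are therefore not counts of independent genes, and the shares of all genes do not allow for this. With a term for the classes 15 members had an unadjusted p under 0.05 (all genes, 1.74%), again all lower. The same term gave 11 members, all higher, for PancO2 IgG against CT26 IgG (all genes, 9.07%). Against CT26 IgG it gave 6 lower for CT26 anti-PD-1 (3.38%) and 6 higher for CT26 anti-CTLA4 (4.49%). In the other 5 comparisons it gave 0 to 2 (all genes, 1.87% to 4.26%). In a class-centred view, the mean deviation of the members was 0.163, 0.183, 0.469 and 0.133 log2 units in the 4 libraries labelled PancO2 IgG and -0.183, -0.352, -0.105 and -0.393 in those labelled PancO2 anti-CTLA4. These groups did not overlap, as a description without a test, and the same held in 2 more of the 9 comparisons. The libraries labelled CT26 anti-PD-1 (-0.375 to -0.249) lay below those labelled CT26 IgG (-0.224 to 0.0861), and PancO2 IgG (0.133 to 0.469) lay above CT26 IgG. CPM ranges were also compared gene by gene, a count chosen after the values were seen. Between the libraries labelled PancO2 anti-CTLA4 and PancO2 IgG they did not overlap for 4 members (all genes, 0.644%). These were Pkm, Bnip3, Egln1 and Ankrd37, all lower in the former. The ranges did not overlap for 2 members (Pfkfb3 and Ankrd37), both higher, in PancO2 IgG against CT26 IgG (0.538%). They overlapped for all 36 members in PancO2 IgG against MC38 IgG (0.304%), CT26 IgG against MC38 IgG (0.333%), MC38 anti-PD-1 (0.198%), MC38 anti-CTLA4 (0.219%), CT26 anti-PD-1 (0.255%), CT26 anti-CTLA4 (0.304%) and PancO2 anti-PD-1 (1.93%) against their IgG.

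Ankrd37, an ankyrin repeat protein and HIF target, had 18.3, 18.5, 25.3 and 15.7 CPM in the libraries labelled PancO2 IgG and 8.83, 7.06, 10.9 and 6.11 CPM in those labelled PancO2 anti-CTLA4. The groups did not overlap, and the log2 fold change was -1.28 ± 0.28 (SE, n = 4 and 4). In edgeR the unadjusted p was 0.000708 and the Benjamini-Hochberg adjusted p 0.999997, while the DESeq2 Wald test gave an adjusted p of 0.0223. Ankrd37 overlaps Lrp2bp and Ufsp2 on the other strand, so reads of these genes may be mixed.

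Bnip3 had 188, 156, 245 and 253 CPM in the libraries labelled PancO2 IgG and 112, 82.0, 86.1 and 109 CPM in those labelled PancO2 anti-CTLA4, again without overlap. Its log2 fold change was -1.16 ± 0.26 (SE, n = 4 and 4; edgeR unadjusted p = 0.000945, adjusted p = 0.999997). Slc2a1 had 126, 183, 327 and 197 CPM against 80.4, 58.7, 137 and 99.7 CPM. There, 1 library labelled PancO2 anti-CTLA4 lay above the lowest one labelled PancO2 IgG. Its log2 fold change was -1.19 ± 0.39 (SE, n = 4 and 4; edgeR unadjusted p = 0.0112, adjusted p = 0.999997). None of these differences passed edgeR's adjusted threshold.

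Host markers in the same libraries were as follows. The macrophage sum was 1174 to 1700 CPM in the libraries labelled PancO2 IgG and 1482 to 1779 CPM in those labelled PancO2 anti-CTLA4, the endothelial sum 135 to 208 and 134 to 236 CPM, and the epithelial sum 11.5 to 646 and 16.3 to 645 CPM. These ranges overlap, and their part in the difference was not tested. In the libraries labelled CT26, anti-CTLA4 went the other way, with a median log2 fold change of the members of 0.38 and 28 of 36 above 0. With a term for the classes that median was 0.21, and it was -0.46 for PancO2 anti-CTLA4. Without the term, 2 members had an unadjusted p under 0.05 in CT26 (all genes, 0.528%) and none passed adjustment. That count was 9 without the library labelled CT26 IgG 27 (all genes, 3.25%) and 1 to 4 without any other of the 8 libraries compared. For those other fits the share of all genes is not given. The comparisons of PancO2 IgG with CT26 IgG (2 of 36, all genes 0.594%) and of PancO2 anti-PD-1 with IgG (1 of 36, all genes 5.56%) held the only other members at that level.

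**Figure D5:**
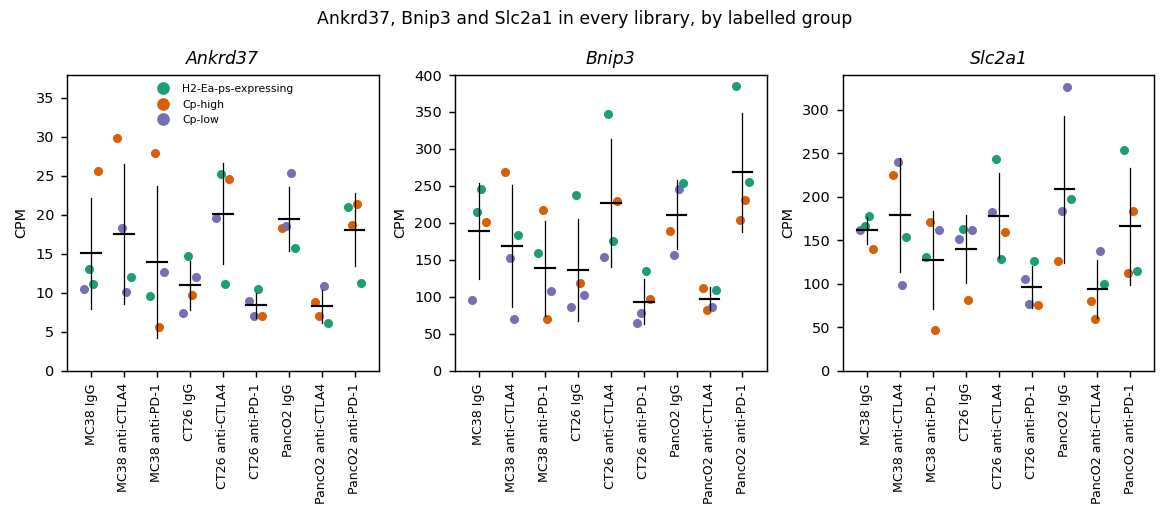
CPM of Ankrd37, Bnip3 and Slc2a1 in each of the 36 libraries by labelled group, coloured by class, with a line at the mean and a bar of 1 SD on either side (n = 4). In PancO2 anti-CTLA4, Ankrd37 lies at 6.11 to 10.9 CPM below all 4 PancO2 IgG libraries at 15.7 to 25.3 CPM.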

How the data were processed

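Per the labels, RNA was extracted with TRIzol and poly-A libraries were made with a TruSeq V2 kit. The study's methods name a stranded KAPA kit, so the use of strand is uncertain. The deposited values are raw counts by Ensembl identifier. The authors aligned reads to GRCm38/mm10 with TopHat and Bowtie and counted them with HTSeq. The submitters' processing notes list FastQC 0.11.5, Bowtie2 and HTSeq 07.2. The annotation release is not given in the sources used here. Reads with several positions were set aside, and the 5 summary lines, 44.8% to 86.5% of listed reads, entered neither library sizes nor tests.

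From the counts, CPM was computed over the gene lines, and exon lengths and coordinates came from GENCODE M21 on GRCm38. Members, gene lists, classes and tests were chosen with earlier results of these data known. All members were named, with levels in full for those whose ranges did not overlap. Between labels, the 3 combinations of member and comparison with the smallest unadjusted p were named, and of other lists some of the 4 whose class medians differed most, plus Hilpda, Vegfa and Gapdh, chosen after their values were seen. Labelled groups were compared with edgeR 4.0.16 (filterByExpr, TMM, robust quasi-likelihood fit; R 4.3.3), over the 12 IgG libraries or the 12 libraries of 1 model, two-sided. Standard errors are the fold change over the square root of the F statistic. DESeq2 1.42.0 and limma 3.58.1 were alternatives. Correlations used Python 3.11.15, numpy 2.4.6 and scipy 1.17.1, and figures matplotlib 3.10.9. The edgeR step was tested on simulated data for PancO2 IgG against MC38 IgG, where it recovered 200 of 200 genes changed 4-fold among 16269 at a dispersion of 0.04, with 14 false calls. Some members were far more variable in the real libraries of this comparison. The standard errors of Egln3 and Car12 were 1.35 and 1.73 log2 units. The simulation therefore does not show the power for such genes, and 0 members called is no evidence of equal levels. Counts of library pairs in 1 group differed with at least 15.6 times the variance of sampling (chi-square over degrees of freedom, 54 pairs). None therefore looked like 1 library sequenced again. That each library came from a separate mouse rests on the labels. The labels do not say which mice shared a cage or batch.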

Additional observations from a re-analysis of the deposited data

Results flagged for a closer look

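Ankrd37 and Bnip3 had anti-CTLA4 means on opposite sides of the IgG mean in CT26 and PancO2 by the labels, and edgeR called neither gene in either model (adjusted p = 0.999919 in CT26 and 0.999997 in PancO2). Every library labelled CT26 anti-CTLA4 lay above the CT26 IgG mean and every library labelled PancO2 anti-CTLA4 below the PancO2 IgG mean. The mix of classes differed between the CT26 groups. In the H2-Ea-ps-expressing class, CT26 anti-CTLA4 35 lay below CT26 IgG 27 (Ankrd37 11.2 against 14.8 CPM, Bnip3 175 against 238 CPM). CT26 anti-CTLA4 34 lay above that library (25.3 and 347 CPM). Ankrd37 averaged 20.1 CPM with anti-CTLA4 and 10.96 CPM with IgG in CT26, and 8.22 and 19.5 CPM in PancO2. Bnip3 averaged 226 and 136 CPM in CT26, and 97.4 and 211 CPM in PancO2. The difference between the models was not tested. Only Ankrd37, Bnip3 and Slc2a1 were searched for this pattern. They were chosen for their small unadjusted p in PancO2 anti-CTLA4 against IgG, so the PancO2 side followed from the choice. How many of all genes show the pattern was not counted. The values of Ankrd37, Bnip3 and Slc2a1 in the libraries labelled PancO2 IgG and PancO2 anti-CTLA4 made 6 sets of 4, which share libraries. In these sets 0 libraries lay far from the others by Dixon's criterion, which chance meets in about 1 set of 20.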

How the results depend on the processing

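No paired analysis was possible because each mouse number in the labels belongs to 1 library. Over 9 comparisons and their alternatives (144 fits), the count of members called moved once, to 1 with the DESeq2 Wald test for PancO2 anti-CTLA4 against IgG. With each library of the compared groups left out it was 0 throughout. Members at an unadjusted p under 0.05 then ran from 3 to 8 for PancO2 anti-CTLA4 and from 1 to 9 for CT26 anti-CTLA4. The share of all genes also moved between such fits and is not set beside these ranges. The log2 fold change of Ankrd37 ran from -1.43 to -1.10, of Bnip3 from -1.26 to -1.01 and of Slc2a1 from -1.41 to -0.86. With both class cutoffs divided by 2, 1 library changed class and the members not overlapping between Cp-high and Cp-low fell from 9 to 1, and the share of all genes from 30.7% to 8.47%. With both multiplied by 2, 11 libraries changed class, leaving 1 in Cp-high, and it was 4 (all genes, 10.2%). The mean pairwise r was 0.505 and 0.435 in the H2-Ea-ps-expressing and Cp-high classes with TMM-scaled libraries, 0.363 in Cp-high as Spearman's rho, and 0.445, 0.361 and 0.368 in the 3 classes without the 2 farthest libraries. Among single pairs, Hif1a and Pgk1 in the H2-Ea-ps-expressing class had rho = 0.0364 and, with TMM scaling, r = 0.0171. Ldha and Ldhb there had r = 0.257, and Car9 and Ndrg1 in Cp-low -0.0803, without the 2 farthest. With only genes of a mean of at least 10 CPM, 8, 7 and 8 members did not overlap between the pairs of classes, beside 33.8%, 28.1% and 32.9% of 10082 genes. Pairs past the threshold numbered 15 to 18 of 27. Depth limited Car12 and Ldhb, with as few as 3 and 5 counts.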

Other observations

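Genes outside the list that followed the members most closely were ranked by their mean r averaged over the classes and were chosen after these values were seen. Fam162a, a hypoxia-induced mitochondrial protein (0.669, 0.621 and 0.638 in the H2-Ea-ps-expressing, Cp-high and Cp-low classes), and Higd1a (0.663, 0.621 and 0.629) came first. Gys1, the muscle glycogen synthase (0.623, 0.593 and 0.634), and Pgm1, which links glycogen to glycolysis (0.670, 0.590 and 0.579), were also among the 25 highest, with Mif (0.669, 0.581 and 0.511), Bsg, the partner of the lactate transporters (0.647, 0.479 and 0.608), and Tnfrsf9 (0.595, 0.600 and 0.601). At the other end, the endothelial genes Kdr (-0.604, -0.473 and -0.585), Cd93 (-0.618, -0.531 and -0.535), Stab1 (-0.594, -0.510 and -0.572) and Robo4 (-0.557, -0.535 and -0.523) ran against the members in each class.

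Nuclear genes of oxidative phosphorylation differed between classes in a few members. Cycs, cytochrome c, had a median of 96.2 CPM (79.4 to 137) in the H2-Ea-ps-expressing class, 67.1 CPM (51.6 to 75.3) in Cp-high and 39.5 CPM (23.9 to 50.4) in Cp-low, without overlap between any 2 classes. Ogdh was 111, 176 and 180 CPM at the medians. Of the proliferation genes, Ccnb1 was 87.0, 57.4 and 111 CPM.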
